A study of Schizosaccharomyces pombe with 6 samples.

Results

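Trehalose synthesis and breakdown, glycerol synthesis, small heat shock proteins and several other protective functions are encoded by the 10 fission yeast genes described here: tps1, ntp1, gpd1, hsp9, hsp16, zym1, ish1, rds1, plr1 and cta3. They were taken by gene symbol from the array annotation. Each of the 10 had 1 probe set of its own, so 10 of 2896 measured Schizosaccharomyces pombe genes are covered and no member is missing. The samples were 1:1 mixtures of the h+ strain YHL6381 and the h- strain SPQ-01, which had been grown separately at 30 °C in YEPD to an OD600 of 5.0 and then mixed and held for 90 min in new medium, either YEPD or YEPME. Each medium had 3 Affymetrix arrays from what the titles call biological replicates 1 to 3, and so few arrays limit the precision. The series is about sexual flocculation, in which cells of opposite mating type clump, and the comparison asks what differs between the flocculated and the non-flocculated mixtures. The labels give no genotype beyond mating type for either strain and do not say what YEPME contains. The strain field of the YEPME samples reads diploid while their other fields describe a mixture. The sample titles attach the code YSD to YEPD, and the design text attaches it to YEPME. The groups were set by each sample's own medium field, so every sign between media would turn if the design text were right.

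In fission yeast, stress and nutrient shortage activate the MAP kinase Sty1, which acts largely through the transcription factor Atf1 on a shared set of protective genes. Trehalose is a disaccharide that stabilises proteins and membranes, glycerol balances the osmotic strength of the cytoplasm, and small heat shock proteins hold unfolding proteins in solution. Many of these genes are also known to rise as a culture runs out of glucose.

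Replicate 1 of both media stood apart from replicates 2 and 3. Across the 2896 genes, arrays of replicates 2 and 3 correlated at 0.994 to 0.999 and the 2 arrays of replicate 1 at 0.975, against 0.884 to 0.920 for pairs between them. The labels give no reason, and a difference in the cultures and a difference in array handling or processing cannot be told apart. The background limit, which is the 95th percentile of probe sets for Saccharomyces cerevisiae genes on the same array, lay at 5.59 and 5.60 in replicate 1 and between 4.78 and 4.81 in replicates 2 and 3. The median of the S. pombe genes was 10.22 on both replicate 1 arrays and 10.28 to 10.31 on the others. The 3 P cell genes map2, map3 and map4 and the 4 M cell genes mfm1, mfm2, mam2 and mam3 were above the background limit on 6 of 6 arrays. Signal from both sets does not tell a mixture of h+ and h- cells from a diploid that carries both mating types.

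The values of the stress protection genes had a pair of main features. First, averaged over the media, 9 of the 10 had a level at least 2-fold higher in replicate 1 than in replicates 2 and 3. On that average cta3 was 5.22-fold lower. The direction was the same in each medium, but in YEPD alone gpd1 fell short of 2-fold, at 0.99 on the log2 scale. Second, the YEPME minus YEPD difference was small. For 7 of the 10 it was not the same in replicate 1 and in the other replicates (limma interaction, adjusted p under 0.05). Such a departure was also called for 46.4% of all genes. In replicates 2 and 3, tps1, ntp1, gpd1 and plr1 rose and zym1 fell in YEPME by 1.18-fold to 1.54-fold. In replicate 1, plr1 and zym1 differed in the opposite direction.

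**Figure D1:**
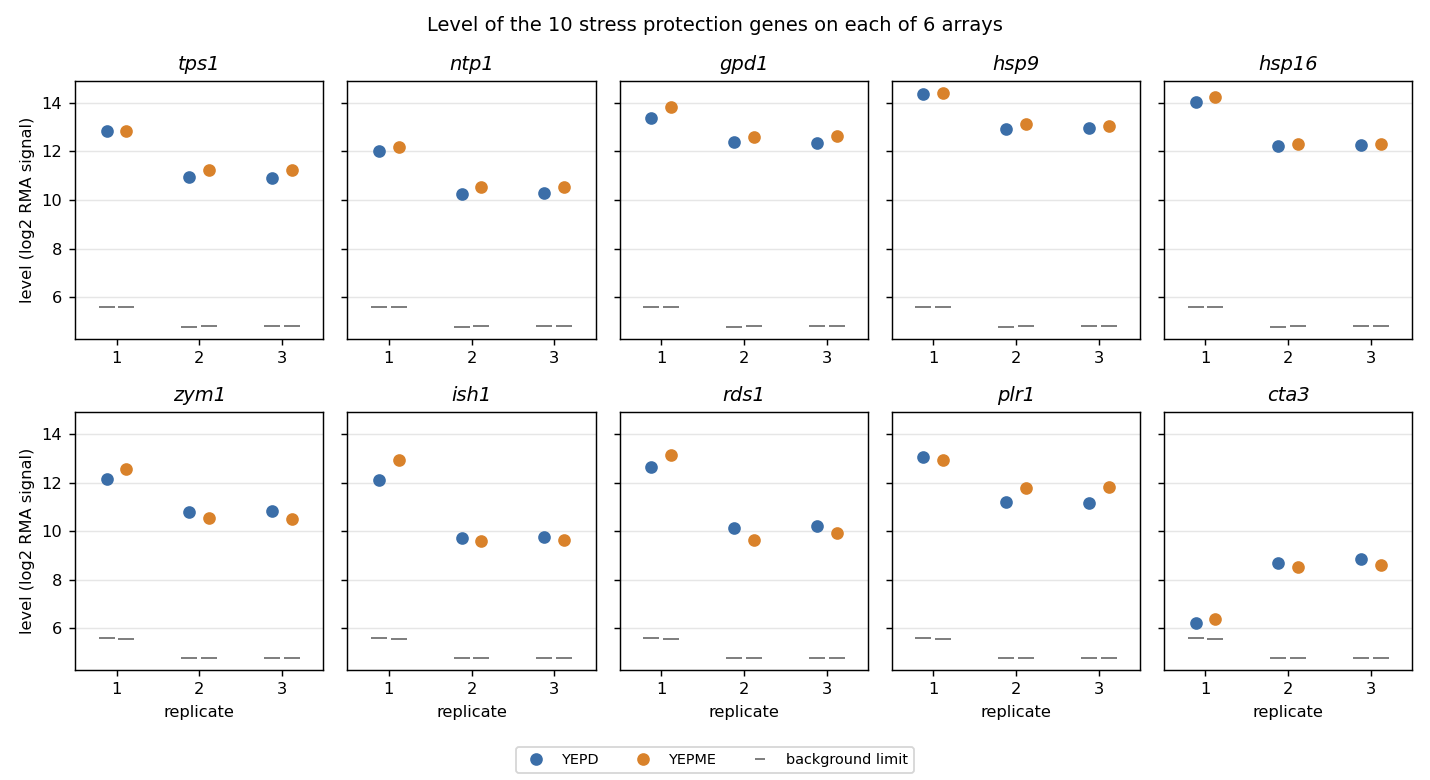
Level (log2 RMA signal) of each gene on the 6 arrays by replicate, with YEPD in blue, YEPME in orange and the background limit of each array as a grey dash. In 9 panels both replicate 1 points lie above the other 4, and in the cta3 panel both lie below them, close to the background limit.

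The offset of replicate 1 was tested with limma, with the medium as a covariate and Benjamini-Hochberg adjustment over the 2896 genes, with an adjusted p under 0.05 counted as passing. All 10 members passed, where 71% of all genes did, so passing alone says little about them. The size says more: 9 of 10 passed and were at least 2-fold higher in replicate 1, against 7.01% of all genes, and 1 of 10 was at least 2-fold lower, against 8.15%. The median offset was 1.69 over the members and -0.00213 over all genes, on the log2 scale. The 2 replicate 1 arrays did not overlap with the other 4 for 10 of 10 members, as for 76.8% of all genes. These p-values measure the spread between arrays, and replicate 1 is a single pair of cultures.

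**Figure D2:**
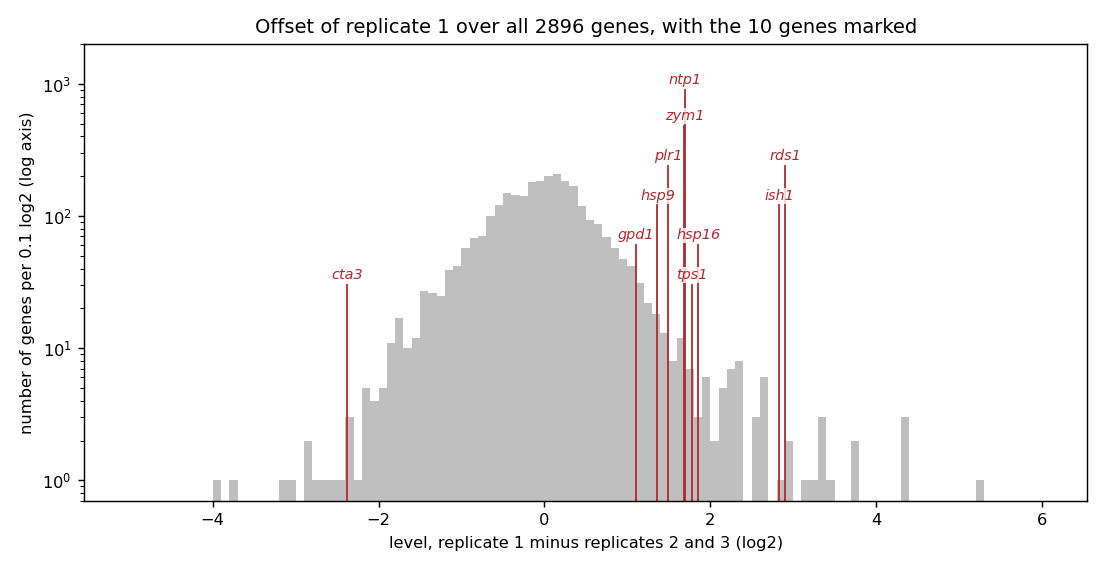
Histogram of the level in replicate 1 minus the level in replicates 2 and 3 (log2) over the 2896 genes, in bins of 0.1 with a logarithmic count axis, and the 10 genes marked in red. The members other than cta3 lie between 1.10 and 2.91, and cta3 lies at -2.38.

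The trehalose genes tps1 and ntp1 followed each other closely on the 6 arrays. tps1 (SPAC328.03) encodes the synthase that makes trehalose phosphate. Its log2 level was 12.86, 10.93 and 10.89 in YEPD and 12.86, 11.25 and 11.25 in YEPME, in the order of replicates 1, 2 and 3. Replicate 1 was thus higher by 1.78 ± 0.09 (SE), or 3.43-fold (limma, adjusted p = 9.58e-05), and the YEPME arrays lay above the YEPD arrays in replicates 2 and 3 but level with them in replicate 1. ntp1 (SPBC660.07), for the neutral trehalase that breaks trehalose down, was at 12.04, 10.27 and 10.30 in YEPD and at 12.18, 10.53 and 10.52 in YEPME. Its offset was 1.70 ± 0.05, or 3.25-fold (limma, adjusted p = 3.97e-05). With each gene centred on its own mean, the 2 profiles lay a root-mean-square distance of 0.07 apart, the smallest among the 45 pairs of members. This distance includes the offset of replicate 1, and the closeness was not particular to the trehalose pair. dak1, a gene outside the members, lay nearer to ntp1, at 0.05.

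In YEPME, tps1 rose within replicates 2 and 3 by 0.34 ± 0.03 (limma on these 4 arrays, adjusted p = 0.00600) and ntp1 by 0.24 ± 0.03 (adjusted p = 0.0131). The pair differences of tps1 were 0.01, 0.32 and 0.36 in replicates 1, 2 and 3, and the difference in replicate 1 departed from that in the others by -0.33 ± 0.06 (limma interaction, adjusted p = 0.0105). For ntp1 the 3 pairs gave 0.14, 0.26 and 0.22, and this departure did not pass (-0.10 ± 0.06, adjusted p = 0.206). Over the other 2 measured trehalose genes, 0 passed within replicates 2 and 3. tpp1, for the phosphatase that completes trehalose, differed there by 0.16 (adjusted p = 0.0609) and was higher in replicate 1 by 1.09, and tps2 differed by 0.10 (adjusted p = 0.106) with an offset of 0.06.

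gpd1 (SPBC215.05) encodes the glycerol-3-phosphate dehydrogenase of stress-induced glycerol synthesis. Its level was 13.37, 12.40 and 12.37 in YEPD and 13.85, 12.61 and 12.66 in YEPME. It was higher in YEPME in all 3 pairs, by 0.48, 0.21 and 0.29, and it had the smallest offset of the members that were higher in replicate 1, 1.10 ± 0.07 (limma, adjusted p = 1.68e-04). That offset was 0.99 without the YEPME array of replicate 1 and 0.88 after quantile normalization of the S. pombe probe sets alone, which takes gpd1 below 2-fold and leaves 8 such members. gpd1 rose within replicates 2 and 3 by 0.25 ± 0.04 (adjusted p = 0.0153), and the departure of replicate 1 was 0.23 ± 0.06 (limma interaction, adjusted p = 0.0359).

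Of the other 5 measured genes of glycerol and dihydroxyacetone metabolism, 4 were at least 2-fold higher in replicate 1, against 7.01% of all genes. Within replicates 2 and 3, 4 of these 5 rose and 0 fell, against 6.91% and 8.7% of all genes. dak2, for a dihydroxyacetone kinase, rose by 1.48 ± 0.11 (limma, adjusted p = 0.00398), gut2, for the mitochondrial glycerol-3-phosphate dehydrogenase, by 1.20 ± 0.06 (adjusted p = 0.00159) and gld1, for glycerol dehydrogenase, by 0.40 ± 0.05 (adjusted p = 0.0114). The replicate 1 pairs of dak2, gut2 and gld1 gave -0.30, 0.76 and 0.76, so dak2 differed there in the opposite direction. Their offsets were 4.35, 4.38 and 3.33, so these genes of glycerol use were further apart between the replicates than gpd1. gpd2, the paralogue of gpd1, differed by -0.01 within replicates 2 and 3 and by 0.03 between the replicates, neither past the test, and by 0.50 between the media in replicate 1.

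The small heat shock protein genes had high levels and small differences between the media. hsp9 (SPAP8A3.04C), whose product is related to Hsp12 of budding yeast, was at 14.35, 12.93 and 12.97 in YEPD and at 14.42, 13.13 and 13.04 in YEPME. hsp16 (SPBC3E7.02C), of the alpha-crystallin family, was at 14.03, 12.21 and 12.26 in YEPD and at 14.24, 12.32 and 12.32 in YEPME. Both were higher in YEPME in each pair, by 0.07, 0.20 and 0.07 for hsp9 and by 0.21, 0.11 and 0.06 for hsp16. These differences within replicates 2 and 3, 0.13 ± 0.04 (adjusted p = 0.0999) and 0.08 ± 0.03 (adjusted p = 0.172), did not pass limma, and neither did the departure of replicate 1 (interaction adjusted p = 0.502 and 0.145).

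Their offsets were 1.36 ± 0.05, or 2.57-fold, for hsp9 (adjusted p = 5.88e-05) and 1.86 ± 0.05, or 3.62-fold, for hsp16 (adjusted p = 3.90e-05). On the replicate 1 arrays the highest S. pombe gene reached 14.46 in YEPD and 14.42 in YEPME, and hsp9 was at 14.35 and 14.42. The level of hsp9 there is therefore at the top of the scale, and whether this compresses its differences was not tested. Of the other 13 measured chaperone genes of the heat response, 2 were at least 2-fold higher in replicate 1, against 7.01% of all genes. Within replicates 2 and 3, 5 of these 13 rose and 0 fell, against 6.91% and 8.7% of all genes. The Hsp40 gene psi1 rose by 0.46 ± 0.04 (limma, adjusted p = 0.00498), the Hsp70 gene ssa1 by 0.41 ± 0.05 (adjusted p = 0.0110) and the cochaperone gene sti1 by 0.32 ± 0.04 (adjusted p = 0.00819). In replicate 1 these differed by -0.37, -0.38 and -0.70.

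ish1 and rds1 had the largest offsets of the members. Like zym1, plr1 and cta3, they turned direction between the replicates. ish1 (SPBC365.12C) encodes a stress-responsive protein of the nuclear envelope. Its level was 12.10, 9.71 and 9.78 in YEPD and 12.93, 9.62 and 9.63 in YEPME. Replicate 1 was higher by 2.83 ± 0.21, or 7.12-fold (limma, adjusted p = 2.83e-04), place 15 among the 2896 genes. The pair differences were 0.82, -0.09 and -0.15, and the departure of replicate 1, 0.94 ± 0.07, was the largest of the 10 members (limma interaction, adjusted p = 0.00135). Within replicates 2 and 3 the difference of -0.12 ± 0.04 did not pass (adjusted p = 0.0979).

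rds1 (SPAC343.12), a conserved fungal gene known to respond to stress and nutrients, was at 12.64, 10.14 and 10.21 in YEPD and at 13.15, 9.66 and 9.94 in YEPME. Its offset of 2.91 ± 0.21, or 7.50-fold (limma, adjusted p = 2.68e-04), held place 14. The pairs gave 0.51, -0.48 and -0.26, with a departure of 0.88 ± 0.17 (limma interaction, adjusted p = 0.0151). The YEPME arrays of replicates 2 and 3 lay 0.28 apart, the widest gap between these replicates among the members, and the difference of -0.37 ± 0.10 there missed the threshold in the fit with no block (adjusted p = 0.0686) but passed when replicate number was a block (limma, adjusted p = 0.00323).

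zym1 (SPAC22H10.13) encodes the zinc-binding metallothionein. Its level was 12.16, 10.81 and 10.82 in YEPD and 12.56, 10.54 and 10.51 in YEPME. It was higher in replicate 1 by 1.69 ± 0.16, or 3.23-fold (limma, adjusted p = 5.79e-04). It was the member whose fall within replicates 2 and 3 passed in the fit with no block, by 0.29 ± 0.03 (limma, adjusted p = 0.00736). Its replicate 1 pair differed by 0.40. The departure was 0.70 ± 0.05 (limma interaction, adjusted p = 0.00166).

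Of the other 7 measured genes of zinc and other metal handling, 3 rose and 0 fell within replicates 2 and 3. The shares of all genes were 6.91% and 8.7%. The zinc importer gene zrt1 rose by 0.93 ± 0.04 (limma, adjusted p = 7.93e-04), from 12.10 and 12.17 in YEPD to 13.07 and 13.05 in YEPME, and was lower in replicate 1 by 1.20 on the log2 scale. The copper transporter gene ctr4 rose by 0.72 ± 0.05 (adjusted p = 0.00398) and hmt1, for a vacuolar transporter of the heavy metal response, by 0.19 ± 0.03 (adjusted p = 0.0199). In replicates 2 and 3 the transcripts of zrt1 and zym1 thus differed in opposite directions. In replicate 1 both were higher in YEPME, by 0.18 for zrt1 and 0.40 for zym1. The replicate 1 pair gave 2.50 for ctr4 and -0.10 for hmt1. bis1, for the binding partner of Ish1, rose within replicates 2 and 3 by 0.21 ± 0.03 (limma, adjusted p = 0.0170). It was the 1 gene of 3 measured in the nuclear envelope list to pass there, against 15.6% of all genes. The replicate 1 pair of bis1 differed in the opposite direction, by -0.26.

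plr1 (SPAC9E9.11), for the pyridoxal reductase of vitamin B6 metabolism, had the largest difference between the media within replicates 2 and 3. Its level was 13.04, 11.19 and 11.16 in YEPD and 12.92, 11.79 and 11.80 in YEPME. It rose there by 0.62 ± 0.03, or 1.54-fold (limma, adjusted p = 0.00157), and the pair of replicate 1 differed by -0.12. The departure was -0.75 ± 0.06 (limma interaction, adjusted p = 0.00157), and the offset was 1.50 ± 0.17, or 2.82-fold (limma, adjusted p = 0.00108). The other 2 measured vitamin B6 genes did not pass within replicates 2 and 3. Of these, bsu1, for the vitamin B6 importer, differed there by 0.25 (adjusted p = 0.0820) and by -0.97 in replicate 1, and snz1, for a synthesis enzyme, by 0.06 (adjusted p = 0.252) and 0.23.

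cta3 (SPBC839.06), for a cation-transporting ATPase that is known to be induced by salt, was the member lower in replicate 1. Its level was 6.22, 8.71 and 8.85 in YEPD and 6.37, 8.54 and 8.61 in YEPME. The offset was -2.38 ± 0.10 (limma, adjusted p = 6.72e-05), place 11 from the lowest of 2896. The replicate 1 values lay 0.62 and 0.79 above the background limits of their arrays, so the size of the offset is uncertain. The pairs gave 0.15, -0.17 and -0.24. Within replicates 2 and 3 the difference of -0.21 ± 0.06 missed the threshold in the fit with no block (adjusted p = 0.0786) but passed when replicate number was a block (limma, adjusted p = 0.0110), and the departure of replicate 1 was 0.36 ± 0.10 (limma interaction, adjusted p = 0.0399). Of the other 9 measured cation pumps and transporters, 2 rose within replicates 2 and 3, against 6.91% of all genes. These were vcx1, for a vacuolar calcium exchanger, by 0.21 and the sodium exporter gene nhe1 by 0.16 (limma, adjusted p = 0.0361 for both). Their replicate 1 pairs gave -0.00260 and -0.39. In replicate 1, 6 of the 9 were lower and 2 higher (limma, adjusted p under 0.05), against 1043 and 1013 of the 2896 genes. Their median offset was -0.50, and 0 of the 9 were at least 2-fold lower, against 8.15% of all genes.

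**Figure D3:**
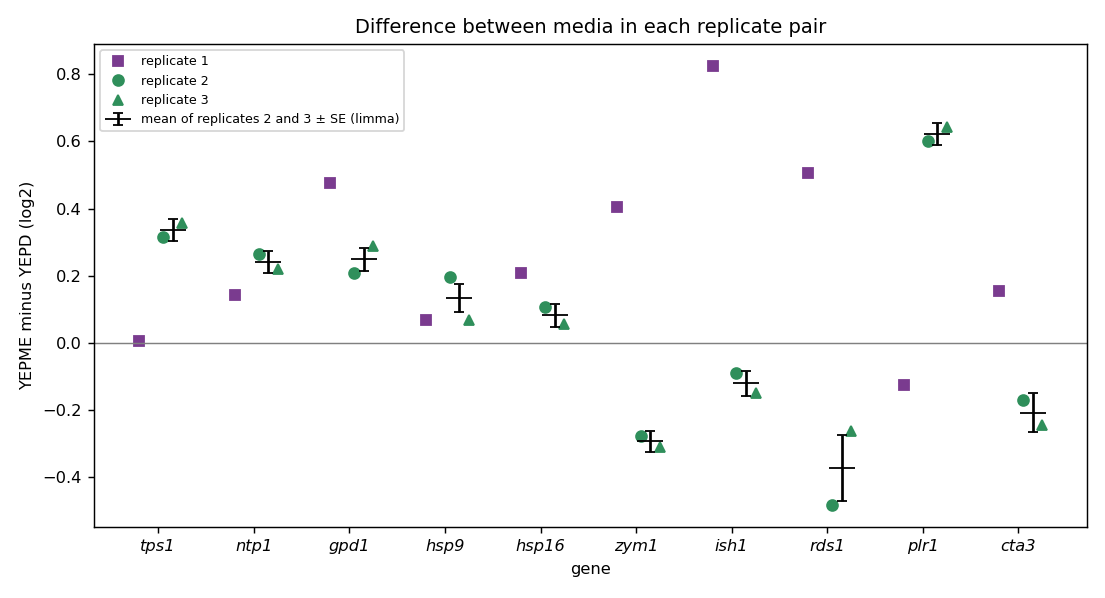
YEPME minus YEPD (log2) for each gene in replicate 1 (purple squares), replicate 2 (green circles) and replicate 3 (green triangles), with the mean of replicates 2 and 3 and its SE from limma in black. The green points lie on 1 side of 0 for each gene, and the purple square lies on the other side for zym1, ish1, rds1, plr1 and cta3.

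Taken over the 10 members, the difference between the media passed for 0 of 10 with limma on the 6 arrays and no block, as for 0% of all genes. The members' unadjusted p was under 0.05 for 0 of 10 in that fit, against 32 of 2896 genes, and the differences ran from -0.09 ± 0.95 for cta3 to 0.37 ± 0.62 for plr1 (SE, adjusted p = 0.999 for each of the 10), so that the offset of replicate 1 fills the spread they are set against. With replicate 1 set apart as a block, 0 of 10 passed against 2.07% of all genes, and tps1, ntp1 and gpd1 had an unadjusted p under 0.05 (adjusted p = 0.266, 0.127 and 0.0985). When replicate number was the block, 0 of 10 passed and 0% of all genes, and ntp1 and gpd1 had an unadjusted p under 0.05.

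Within replicates 2 and 3, 5 of 10 members passed in the fit with no block, 4 higher and 1 lower in YEPME. The shares of all genes were 15.6% in either direction, 6.91% higher and 8.7% lower. With replicate number as a block on the same 4 arrays, 7 of 10 passed, 4 higher and 3 lower, as did 695 of the 2896 genes. The median absolute difference there was 0.25 over the members and 0.07 over all genes. The 2 media did not overlap for 10 of 10 members, as for 63.1% of all genes. Of these members, 6 were higher and 4 lower in YEPME, against 32.5% and 30.6% of all genes. These p-values rest on 2 arrays per medium. Without the YEPD array of replicate 2 or of replicate 3, plr1 alone passed (adjusted p = 0.0387 and 0.0452), while tps1, ntp1, gpd1 and zym1 had adjusted p-values of 0.0795 to 0.143 and kept their direction. In these samples of mixed cells, fewer cells that express a gene and less RNA per cell cannot be told apart.

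The departure of replicate 1 passed for 7 of 10 members, against 46.4% of all genes. It was upward for gpd1, zym1, ish1, rds1 and cta3, against 19% of all genes, and downward for tps1 and plr1, against 27.4%. The sign of the replicate 1 pair was opposite to both other pairs for 5 of 10 members and for 37.4% of all genes. Of these 7, zym1, ish1 and plr1 passed whichever of the 4 arrays of replicates 2 and 3 was left out. Without the YEPD array of replicate 2 the adjusted p was 0.135 for gpd1 and 0.0546 for rds1. Without that of replicate 3 it was 0.102 for gpd1, 0.0603 for rds1, 0.0597 for tps1 and 0.0884 for cta3, and without the YEPME array of replicate 2 it was 0.0740 for cta3. Replicate 1 has 1 array per medium, so this test takes its arrays to vary like those of replicates 2 and 3. In absolute size the members' median difference in replicate 1 was 0.18, against 0.20 over all genes.

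**Figure D4:**
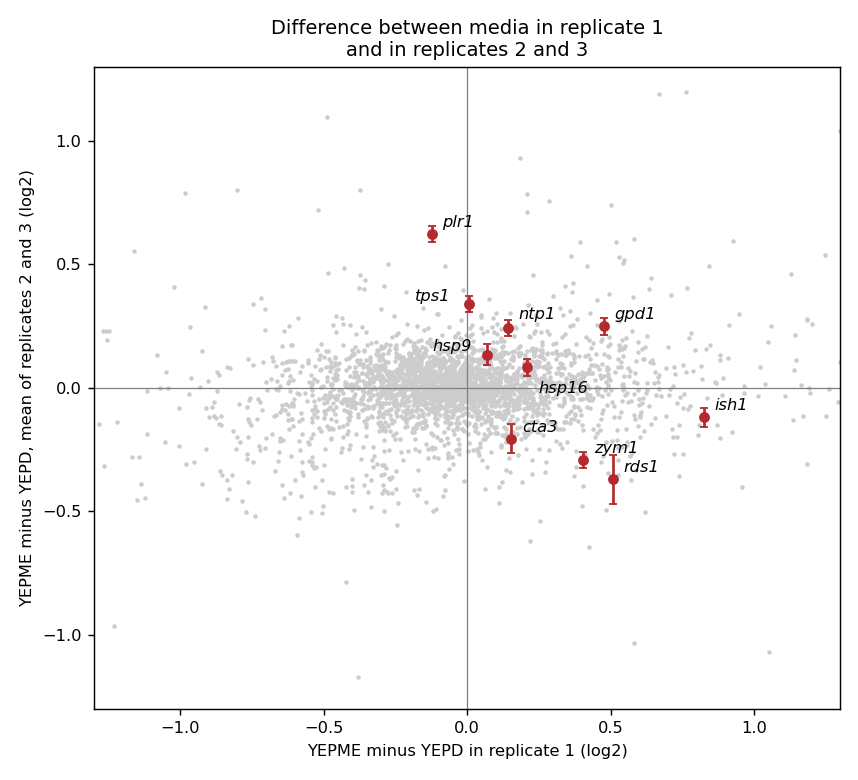
YEPME minus YEPD in replicate 1 (horizontal) against the mean of replicates 2 and 3 (vertical, with SE from limma for the members), both on the log2 scale, for all genes in grey and the 10 members in red. 40 genes outside the range of ±1.3 are not shown. cta3, zym1, ish1 and rds1 lie to the right of 0 and below it, and plr1 lies to the left and above it.

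Among the 21 genes of the Sty1 pathway and its core stress targets, 13 were at least 2-fold higher in replicate 1 and 1 at least 2-fold lower. The shares of all genes were 7.01% and 8.15%. Within replicates 2 and 3, 7 of the 21 rose and 0 fell, against 6.91% and 8.7% of all genes. The kinase gene srk1 rose by 1.64 ± 0.25 (limma, adjusted p = 0.0195), tms1, of the polyol dehydrogenase family, by 0.80 ± 0.08 (adjusted p = 0.00732) and the kinase gene cmk2 by 0.74 ± 0.04 (adjusted p = 0.00263). The replicate 1 pairs of srk1, tms1 and cmk2 gave 1.48, -0.80 and 0.50, so tms1 differed there in the opposite direction. The sty1 and atf1 genes themselves differed by 0.11 and 0.08 within replicates 2 and 3 (adjusted p = 0.278 and 0.374), and their offsets were 0.59 and 1.50. With replicate 1 set apart as a block, 4 of the 21 rose and 0 fell, against 0 of the 10 members and 0.76% of all genes higher. The median offset of the list was 1.50, against 1.69 for the members and 0.17 for the 13 chaperone genes.

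The genes outside the members whose profile over the 6 arrays lay nearest to each of them were found by the root-mean-square distance between profiles centred on their own means. For tps1 and ntp1 the nearest was dak1, for a dihydroxyacetone kinase, at 0.08 and 0.05. For gpd1 it was gsk3, for a protein kinase, at 0.04, followed by sds3 at 0.05. For hsp9 they were yop1 and dps1 at 0.06 each, and for hsp16 gdh1, for glutamate dehydrogenase, and ppk15, for a protein kinase, at 0.09 and 0.10. ppk15 also came second for tps1 at 0.09, and egt1, for ergothioneine synthesis, came second for ntp1 at 0.07.

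For plr1 the nearest genes were ste7, a gene of mating, at 0.12 and sst2 at 0.15. For ish1 they were tcb2 at 0.14 and oca2 at 0.15, for zym1 byr2, the kinase gene of the pheromone cascade, at 0.16 and pnc1 at 0.18, and for rds1 mug143 at 0.26 and oca2 at 0.27. For cta3 they were ppk31, for a protein kinase, at 0.07 and ani1 at 0.17. The ppk31 value of 5.54 on the YEPD replicate 1 array lay below its background limit of 5.60. In each of these profiles the offset of replicate 1 was larger than the difference between the media in any pair. Among the members themselves, ish1 and rds1 lay 0.16 apart, and cta3 lay at least 1.66 from each of the others.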

How the data were processed

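The values deposited by the authors are log2 signals of probe sets. The submitters' processing notes name RMA, which combines background correction, quantile normalization and a summary over probes, and Partek. No version or setting is given in the sources used here, nor whether all arrays were normalized jointly. Labelled cRNA was made from 500 ng of total RNA per the labels. Genes came from the platform annotation, matched by gene number to the RefSeq table ASM294v3, which was used for names. The fits used 2896 S. pombe genes. For the 14 genes with more than 1 probe set, the brightest stood for the gene. Fits used limma 3.58.1 in R 4.3.3 (lmFit and eBayes, two-sided, Benjamini-Hochberg). They were also run on simulated data with known differences and independent noise on each array. For the fits of the medium these data held no departure of replicate 1, so they do not test the p-values where there is one.

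Replicate numbers came from the titles. Deviations from the group means correlated across genes between same-numbered arrays at 0.853, 0.835 and 0.836. These deviations carry the offset of replicate 1, and arrays of different numbers were not compared. The values therefore do not show whether the numbers 2 and 3 pair the arrays. The members and gene lists were chosen with earlier results of these data known. The naming rule covered all 10 members, up to 3 genes per list that passed within replicates 2 and 3 or with replicate 1 set apart as a block, largest difference first, and the 2 nearest profiles per member. Other list genes named (tpp1, tps2, gpd2, bsu1, snz1, sty1 and atf1) were chosen after their values were seen. From the lists, pmc1 and pdx1 were left out because these symbols stand for other genes here, hsp60 was read as mcp60 and sod2 as nhe1. Alternatives were the replicate number or replicate 1 as a block, median centring, quantile normalization, leaving out dim genes, averaging probe sets, eBayes with trend and robust settings, and leaving out each array.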

Additional observations from a re-analysis of the deposited data

Results flagged for a closer look

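For 7 of the 10 genes the difference between the media in replicate 1 departed from that in replicates 2 and 3 in the limma interaction test. The departure, on the log2 scale, was 0.94 for ish1, 0.88 for rds1, 0.70 for zym1, 0.36 for cta3 and 0.23 for gpd1, and -0.33 for tps1 and -0.75 for plr1. The calls of gpd1, rds1, tps1 and cta3 were each lost without at least 1 of the 4 arrays of replicates 2 and 3, and those of ish1, zym1 and plr1 were kept without any 1 of them. A departure was called for 46.4% of all genes, and its cause was not tested.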

How the results depend on the processing

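The offset of replicate 1 kept its direction for 10 of 10 genes under every alternative run. In the alternatives that kept both replicate 1 arrays it passed for 10 of 10. It passed there for 1739 to 2079 of the 2896 genes, so passing alone says little about the members. The difference between the media on 6 arrays passed for 0 genes under each alternative except replicate 1 as a block, which called 60 genes, and with the replicate block it passed for 0. Leaving out 1 array in turn, of any replicate, changes the share of replicate 1 arrays in a medium. This moved the difference between -0.31 and 0.87 for tps1, -0.34 and 0.79 for ntp1, and -0.0811 and 0.65 for gpd1. The ranges were -0.33 to 0.58 for hsp9, -0.52 to 0.72 for hsp16, -0.74 to 0.39 for zym1 and -0.91 to 0.98 for ish1. For rds1, plr1 and cta3 they were -1.19 to 0.74, -0.000583 to 1.00 and -0.94 to 0.65. Of the members, 0 passed in any of these fits. Within replicates 2 and 3, the 452 genes called became 695 with the replicate block and 753 with trend and robust settings, which called 9 of the 10 members, and leaving out 1 array gave 19 to 483 genes and 1 to 6 members. The signs of the 10 members did not change there. The departure of replicate 1 was called for 592 to 1429 genes and 3 to 7 members when 1 array was left out, and cta3 lost its call after quantile normalization (adjusted p = 0.106). In each fit without an array, a medium left with 1 array in a replicate set is taken to vary like the others.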
